A study of Mus musculus with 24 samples.

Results

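Replication-dependent histone genes encode the core histones H2A, H2B, H3 and H4 and the linker histone H1 that package newly made DNA. They are transcribed in S phase, mostly from clusters of genes without introns, and their mRNAs end in a conserved stem-loop in place of a poly(A) tail. The stem-loop-binding protein SLBP and the U7 small nuclear RNP direct the cut behind the stem-loop, and the mRNAs are degraded when DNA synthesis stops. Members were the genes whose symbol has the form Hist1h to Hist4h followed by a histone type, and 70 of the 55471 genes in the count tables met this rule. By symbol 6 are H1, 20 H2A, 19 H2B, 12 H3 and 13 H4 genes, among them 3 annotated as pseudogenes (*Hist1h2aj*, *Hist1h2al* and *Hist3h2bb-ps*), and 62 passed the filter on low counts among 17522 genes tested.

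The data are bulk RNA-seq of 3T3 mouse embryonic fibroblasts (MEFs), immortalized fibroblasts, with 24 libraries, 3 for each of 8 groups. The genotypes were wild type (WT), *Lkb1*-/- (deletion of *Stk11*, the gene of the kinase LKB1), and A1 and A2, which lack both *Lkb1* and the transcriptional coactivator gene *Crtc2*. Each genotype was either left untreated or given the inflammatory cytokine IL-1β for 6 hours. A1 and A2 each grew from a single cell after CRISPR-Cas9 cutting of *Crtc2* on the *Lkb1*-/- background, so the loss of *Crtc2* cannot be told apart from other differences of a clone. WT and *Lkb1*-/- MEFs are separate lines, so the loss of LKB1 cannot be told apart from other differences between these lines either. Fibroblast genes such as *Dcn* and *Pdgfra* differed widely between them (log2 fold changes of 9.04 and 6.22, untreated). Over the 9 fibroblast markers tested, the untreated log2 fold changes lay between -3.63 and 9.04 with a median of 0.46, and 4 of them were negative. Nothing in the labels says whether replicates came from separate cultures, so p-values measure the spread between these libraries only, which may be technical.

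Each library held between 38842901 and 48594394 counts assigned to genes. *Stk11* lay between 83.4 and 87.8 CPM (counts relative to the size of the library, scaled with TMM) in the WT libraries and between 16.3 and 23.2 CPM in the libraries labelled as lacking LKB1. *Crtc2* lay between 79.0 and 84.5 CPM in *Lkb1*-/- libraries and between 41.1 and 56.3 CPM in the clones. The fibroblast genes *Col1a1*, *Fn1* and *Vim* were above 590 CPM in every library, while *Thy1*, *Lum* and *Fap* were near 0. Of the 12 markers of leukocytes, epithelium and endothelium, 10 stayed under 0.5 CPM in every library. In all 8 groups the library numbered 1 had the lowest level of *Rn7sk*, the 7SK small nuclear RNA, and the highest level of *Malat1*. The counts given below are therefore repeated further on without the 8 libraries numbered 1.

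The histone 3′ end is the feature that sets these mRNAs apart from other mRNAs, and it was looked for in the annotated transcripts. A perfect stem of 6 bases starting with GG, around a loop of 4 bases with T at loop bases 1 and 3, was found after the stop codon in 46 of the 70 genes, between 21 and 58 bases behind the stop codon, with a median of 31. Of the other 24 genes, 18 have at most 2 annotated bases after the stop codon or, as for the 3 pseudogenes, no annotated coding sequence, so that no stem-loop could be found. *Hist1h1a* has 48 and *Hist2h3b* 37 annotated bases there. The remaining genes, with longer annotation, are *Hist1h2bc*, *Hist1h2bq*, *Hist1h2br* and *Hist2h2be*. The stem-loops below were chosen to show the forms found in each histone type, with the 16 bases of stem and loop in capitals and 5 flanking bases on each side, 5′ to 3′ on the strand of the gene.
Hist1h1c: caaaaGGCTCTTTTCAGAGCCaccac
Hist1h2ab: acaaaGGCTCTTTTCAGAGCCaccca
Hist1h2bf: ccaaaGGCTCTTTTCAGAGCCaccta
Hist1h3d: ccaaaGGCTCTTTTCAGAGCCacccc
Hist1h3e: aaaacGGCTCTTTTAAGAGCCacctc
Hist2h2ac: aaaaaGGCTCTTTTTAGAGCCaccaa
Hist1h4f: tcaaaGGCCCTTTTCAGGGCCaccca
Hist1h4b: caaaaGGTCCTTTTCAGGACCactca
Hist2h4: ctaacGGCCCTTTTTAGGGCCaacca

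The coordinates of these stretches are on GRCm38. They are chr13:23739507-23739532 (+) for *Hist1h1c*, chr13:23751567-23751592 (+) for *Hist1h2ab*, chr13:23573760-23573785 (-) for *Hist1h2bf*, chr13:23576239-23576264 (+) for *Hist1h3d*, chr13:23561898-23561923 (-) for *Hist1h3e*, chr3:96220413-96220438 (-) for *Hist2h2ac*, chr13:23551286-23551311 (-) for *Hist1h4f*, chr13:23757361-23757386 (+) for *Hist1h4b* and chr3:96262934-96262959 (-) for *Hist2h4*. Each lies in the 3′ untranslated part of the only exon of its gene. Among the 46 genes there were 8 different stem-loops. The form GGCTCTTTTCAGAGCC was the most frequent, in 26 genes of the types H1, H2A, H2B and H3. All 12 H4 genes with a stem-loop had one of the forms with GGCCCT or GGTCCT in the first arm of the stem, and no gene of another type did.

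Reads on these genes bear on the kind of library. A library primed on poly(A) tails would be poor in mRNAs that end at a stem-loop, whereas a library from RNA depleted of ribosomal RNA keeps them. The sample labels name an mRNA kit, and the study's methods name ribosomal depletion, so the counts were compared with those of RNAs known to lack or to carry a tail. The 70 genes together took between 0.499% and 0.769% of the gene counts of a library, with a median of 0.642%, or between 194497 and 370925 counts. Of the 62 genes tested, the median level over the 24 libraries was 88.4 CPM per kilobase (kb) of exon, against 7.45 CPM per kb for 11890 protein-coding genes with a mean above 0.5 CPM. Measured against those genes, 35 histone genes ranked in the top 5% per kb and 17 in the top 1%.

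H4 genes stood highest per kb, with *Hist1h4f* at 634 and *Hist1h4n* at 603 CPM per kb. Among H1 genes, *Hist1h1b* stood at 365 and *Hist1h1c* at 243 CPM per kb. The leading genes of the other types were *Hist1h2ak* (303) and *Hist1h2ab* (123) for H2A, *Hist1h2bg* (217) and *Hist1h2bj* (199) for H2B, and *Hist1h3e* (222) and *Hist1h3f* (162) for H3, in CPM per kb. These levels lay in the range of polyadenylated reference mRNAs. The ribosomal protein mRNA *Rplp0* was at 439, the tubulin mRNA *Tubb5* at 633, the glycolytic enzyme mRNA *Gapdh* at 282 and *Hprt* at 73.9 CPM per kb. Levels per kb rest on the annotated exon length, which runs far past the stem-loop in some genes, as in *Hist1h1d* with 4884 further bases, and which lowers the value of such genes. Genes with fewer than 100 annotated bases past the stem-loop had a median of 87.0 CPM per kb (23 genes, of which 19 were tested), and genes with 100 or more had 62.9 (23 genes, 21 tested). The 24 genes with no annotated stem-loop had a median of 49.8 CPM per kb. Annotated length enters both these classes and the level per kb, so their order on this scale is partly built in. Without division by length the summed levels were 1656 CPM for the genes with fewer than 100 bases past the stem-loop and 3550 CPM for those with 100 or more.

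Other RNAs without a tail gave mixed values. *Rn7sk*, which is made by RNA polymerase III, took a mean of 12195 CPM, more than the 10095 CPM of *Actb*. *Malat1*, whose 3′ end is a triple helix and not a tail, had 3438 CPM, and the Cajal body RNA *Scarna2* had 36.4 CPM. The Y RNA *Rny3* had 21.6 and the U12 spliceosomal RNA *Rnu12* 4.17 CPM. In contrast, *Rpph1*, the RNA of RNase P, had 0.533 CPM, and *Terc*, the telomerase RNA, and *Rnu7*, the U7 RNA of histone 3′-end processing, had 0 counts in every library. Of the 18 such RNAs found in the tables, 6 had a mean above 10 CPM. RNA size and overlapping annotation can also set these levels, and their part was not tested.

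**Figure D1:**
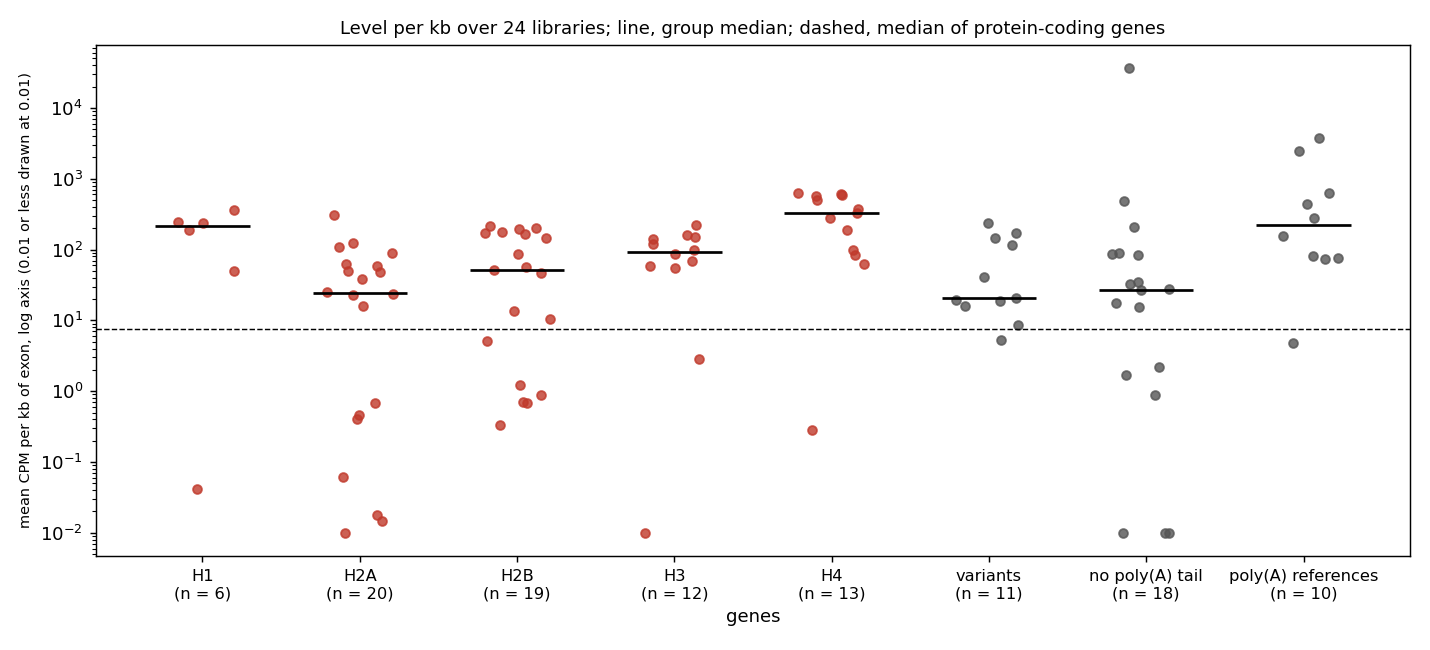
Mean level over 24 libraries in CPM per kb of exon (log axis, with values of 0.01 or less drawn at 0.01) of the histone genes by type (red), of replication-independent histone variants, of RNAs without a poly(A) tail and of polyadenylated reference mRNAs (grey). Each point is 1 gene, black lines are medians, and the dashed line is the median of 11890 protein-coding genes at 7.45 CPM per kb, below most histone genes.

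The 56 genes with a *Hist1* symbol lie on chromosome 13, in a cluster except for *Hist1h2al*. The *Hist2* cluster on chromosome 3 holds 10, *Hist3* on chromosome 11 holds 3, and *Hist4h4* lies alone on chromosome 6. Counted over all libraries, H4 genes made 41.9% of the summed level, H1 24.2%, H2B 13.9%, H3 12.8% and H2A 7.22%. The H2A share depends on how strands were counted. All 20 H2A genes have an annotated gene on the other strand, and unstranded counts held between 18.2% and 22.1% of the stranded counts of the H2A genes, against 97.8% to 99.3% for H2B genes.

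The summed level was highest in *Lkb1*-/- MEFs and lowest in the clones. In untreated WT MEFs it was 6733, 7059 and 7057 CPM, and in untreated *Lkb1*-/- MEFs 6896, 7742 and 7481 CPM. Clone A1 had 5127, 5530 and 6228 CPM, and clone A2 had 5747, 5570 and 6593 CPM. The 3 *Lkb1*-/- libraries overlapped those of WT, while all 6 clone libraries lay below every WT and every *Lkb1*-/- library. Between libraries of the same replicate number, *Lkb1*-/- was above WT in 3 of 3, by 0.03, 0.13 and 0.08 on the log2 scale. After IL-1β the levels were 6648, 6695 and 7115 CPM in WT and 7162, 7703 and 7466 CPM in *Lkb1*-/- MEFs. They were 4768, 5420 and 6109 CPM in A1 and 5436, 6077 and 6406 CPM in A2. With IL-1β the WT and *Lkb1*-/- libraries did not overlap, and the clones again lay below both. A1 and A2 overlapped each other under both treatments, and A1 was below A2 at each replicate number, which was not tested. The mean in A1 was 23.7% below that of *Lkb1*-/- MEFs untreated and 27.0% below after IL-1β, and that in A2 was 19.0% and 19.8% below. As a share of all gene counts without TMM scaling, untreated A2 (0.562% to 0.662%) overlapped WT (0.646% to 0.676%) but was below it in 3 of 3 libraries of the same number. Untreated *Lkb1*-/- MEFs (0.721% to 0.769%) stayed above WT. After IL-1β the share in A2 (0.59% to 0.651%) also overlapped that in WT (0.617% to 0.67%). It was above WT at number 2 (0.623% against 0.617%) and below it at numbers 1 and 3. The order of A2 and WT after IL-1β thus depended on the scaling. In bulk RNA, fewer cells in S phase and less histone mRNA per cell cannot be told apart.

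**Figure D2:**
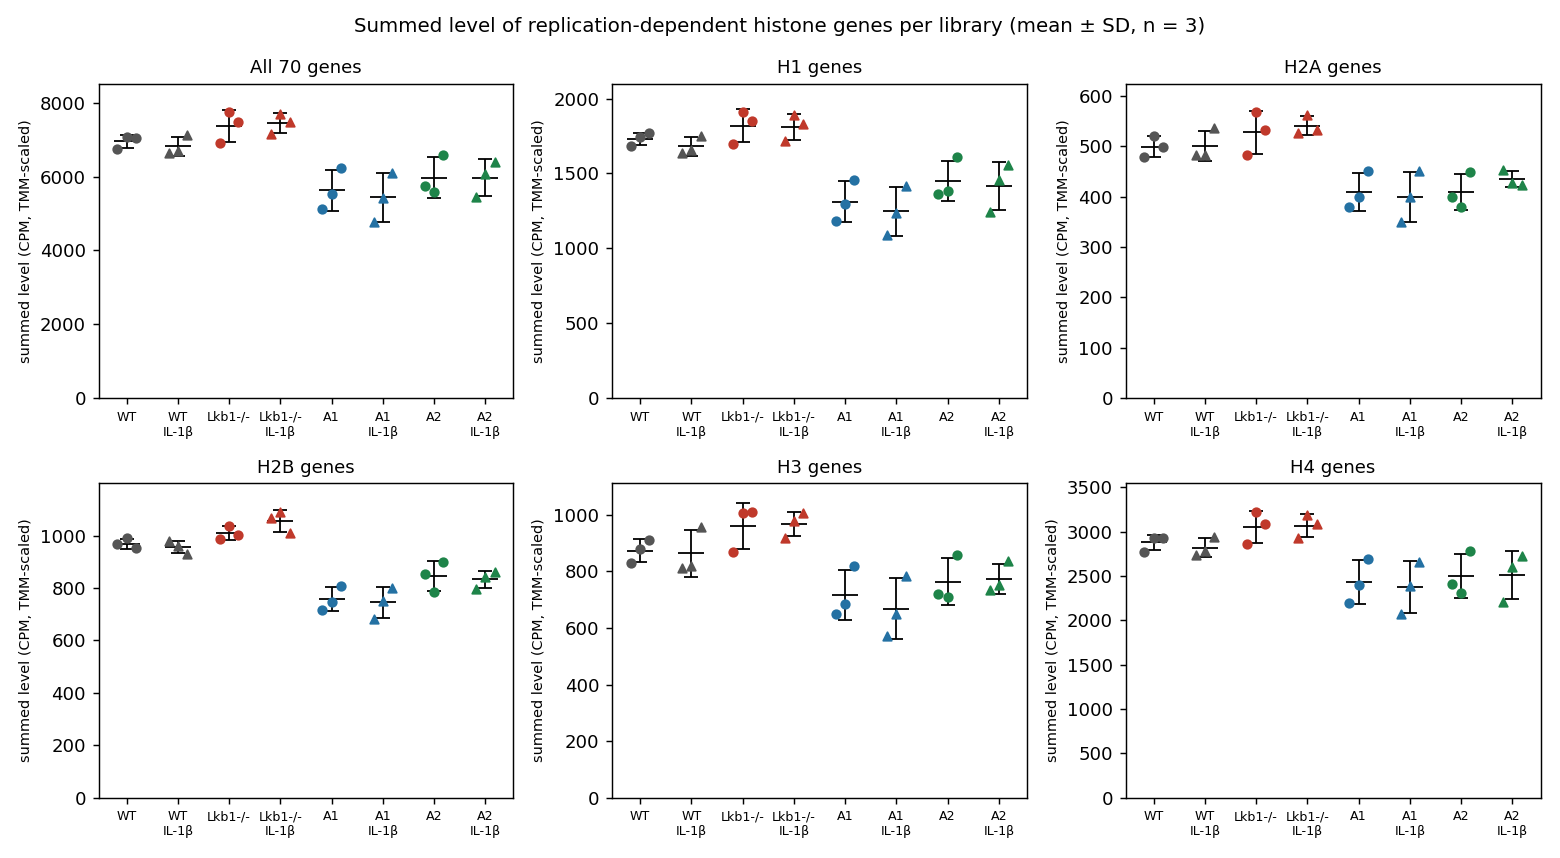
Summed level of the histone genes in CPM after TMM scaling, for all 70 genes and for each type, in the 24 libraries (points) with mean ± SD of 3 libraries; circles are untreated and triangles IL-1β. In each panel the A1 and A2 libraries lie below the *Lkb1*-/- libraries, which for all 70 genes range from 6896 to 7742 CPM.

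To determine which histone genes differed between the lines with and without LKB1, *Lkb1*-/- MEFs were compared with WT MEFs. In untreated cells 18 of 62 genes were higher and 3 lower in *Lkb1*-/- MEFs (edgeR's quasi-likelihood test, false discovery rate (FDR) under 0.05). Of all 17522 genes, 55.9% were called in this comparison, 30.1% higher and 25.8% lower. The histone genes were thus called higher about as often as all genes (29.0%) and lower in 4.84%. The median log2 fold change was 0.10 for histone genes and 0.04 for all genes. After IL-1β, 21 genes were higher and 1 lower, against 57.4% of all genes called, 30.2% higher and 27.1% lower, with a median of 0.11 against 0.03. Genes of all types were among the 15 called higher under both treatments. Unstranded counts gave 10 higher and 5 lower of 59 genes untreated, and 12 higher and 2 lower after IL-1β. Among all genes they gave 4703 higher and 5117 lower untreated (median -0.02), and 4830 higher and 5169 lower after IL-1β (median -0.01). With upper quartile scaling 29 were higher and 2 lower untreated, and 34 higher and 1 lower after IL-1β, as this scaling raised the median of all genes to 0.12 and 0.14. *Rn7sk* also rose in this comparison, from 4950 to 8088 CPM in the WT to 8075 to 15373 CPM in the *Lkb1*-/- libraries, and its part in these results was not tested.

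Apart from *Hist1h2bq*, described below, the largest difference among genes above 10 CPM was in *Hist1h1a*, the gene of linker histone H1.1 (chr13:23763666-23764406 on the plus strand, GRCm38, 1 exon). It stood at 89.3, 102 and 94.8 CPM in untreated WT MEFs and at 249.8, 283 and 270.1 CPM in untreated *Lkb1*-/- MEFs. After IL-1β it stood at 89.3, 93.9 and 96.4 CPM in WT and at 257, 289 and 273 CPM in *Lkb1*-/- MEFs. No *Lkb1*-/- library came near a WT library. The log2 fold change was 1.49 ± 0.11 (SE) untreated and 1.55 ± 0.11 after IL-1β (adjusted p = 2.41e-10 and 1.26e-10, edgeR). None of the other H1 genes was called higher. *Hist1h1b* had a log2 fold change of -0.05, *Hist1h1c* of -0.09 and *Hist1h1e* of 0.10 in untreated cells, none of them called. *Hist1h1d* was lower in untreated cells, with 449, 463 and 489 CPM in WT and 360, 411 and 406 CPM in *Lkb1*-/- MEFs (log2 fold change -0.25 ± 0.09, adjusted p = 0.0284). After IL-1β no H1 gene was called lower, and the lowest log2 fold change among the H1 genes was -0.20. The untreated call of *Hist1h1d* was lost with upper quartile scaling (-0.17, adjusted p = 0.0749), without the second untreated WT library (-0.26, adjusted p = 0.055) and without the libraries numbered 1 (-0.22, adjusted p = 0.077). As a result, *Hist1h1a* made 5.51% ± 0.31 (SD, n = 3) of the H1 counts in untreated WT and 14.7% ± 0.11 in untreated *Lkb1*-/- MEFs. Its share was 12.4% ± 0.33 in A1 and 12.4% ± 0.22 in A2. *Hist1h1t*, which is known from the testis, had at most 7 counts in a library.

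The promoters of the H1 genes are shown because *Hist1h1a* differed from the other members of its type. Each line starts at the CCAAT box nearest to the RefSeq start of the gene and runs for 40 bases on the strand of the gene, with CCAAT and TATAAA in capitals (GRCm38.p6).
Hist1h1a: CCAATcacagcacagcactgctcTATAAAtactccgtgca
Hist1h1b: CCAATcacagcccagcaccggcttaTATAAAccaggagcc
Hist1h1c: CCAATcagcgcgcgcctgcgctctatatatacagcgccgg
Hist1h1d: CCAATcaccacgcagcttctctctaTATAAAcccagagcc
Hist1h1e: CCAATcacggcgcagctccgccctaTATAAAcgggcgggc
Hist1h1t: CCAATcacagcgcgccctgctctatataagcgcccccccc

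These stretches are chr13:23763612-23763651 (+), chr13:21780639-21780678 (-), chr13:23738753-23738792 (+), chr13:23554981-23555020 (+), chr13:23622571-23622610 (-) and chr13:23695746-23695785 (+), in the order of the lines. The CCAAT box began between 51 and 65 bases before the start in all 6 genes. The H1 box, searched as AAACACA on both strands in the 250 bases before the start, was found in 5 of the 6 H1 promoters, and *Hist1h1a* was the one without it. It was present in 6.22% of 27025 promoters. Of the 62 members with a RefSeq promoter, 82.3% held CCAAT and 46.8% TATAAA, against 34.5% and 13.0% of all promoters. CCAAT was present in all 18 H2A and all 16 H2B promoters but in only 3 of 12 H4 promoters. The octamer ATTTGCAT was present in 7 H2A and 6 H2B promoters, in no H1, H3 or H4 promoter, and in 1.61% of all promoters. A match in these letters is a description of the sequence and not evidence of binding.

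Of the core histone genes, *Hist4h4* (chr6:136801553-136804415 on the minus strand) stood at 123, 144 and 151 CPM in untreated WT and at 195, 271 and 254 CPM in untreated *Lkb1*-/- MEFs. The groups did not overlap, and the log2 fold change was 0.78 ± 0.17 (adjusted p = 0.000409) untreated and 0.67 ± 0.17 after IL-1β (adjusted p = 0.00164). *Hist2h2be* was low in all libraries, at 1.5, 1.66 and 1.72 CPM in WT and 3.46, 2.81 and 4.69 CPM in *Lkb1*-/- MEFs, and rose by 1.17 ± 0.19 on the log2 scale (adjusted p = 2.45e-05). *Hist3h2a*, also low, rose by 0.61 ± 0.24 untreated (adjusted p = 0.0396) and by 0.84 ± 0.24 after IL-1β (adjusted p = 0.00587). The call for *Hist3h2a* after IL-1β was lost with unstranded counts (0.44, adjusted p = 0.123) and without the third WT library (0.58, adjusted p = 0.0583). *Hist2h2aa2* had 2 to 10 counts per library in untreated WT and 15 to 23 in untreated *Lkb1*-/- MEFs, and its exonic sequence recurs in full in another histone gene. Its log2 fold change of 1.85 ± 0.46 (adjusted p = 0.00173) rests on these few counts, and lay between 1.46 and 2.6 when single libraries were left out. After IL-1β the log2 fold change was 0.27 ± 0.43, and the gene was not called.

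*Hist1h2bf*, an H2B gene (chr13:23573736-23574196 on the minus strand, 1 exon), went the other way. It stood at 85.1, 79.9 and 80.6 CPM in untreated WT and at 45.7, 47.0 and 48.5 CPM in untreated *Lkb1*-/- MEFs. In the clones it was lower again, at 12.2, 13.3 and 15.2 CPM in A1 and 20.8, 21.0 and 24.2 CPM in A2. None of the 4 genotypes overlapped another in untreated cells. The log2 fold change of *Lkb1*-/- against WT MEFs was -0.80 ± 0.10 untreated (adjusted p = 9.64e-07) and -0.83 ± 0.10 after IL-1β (adjusted p = 5.68e-07). Against *Lkb1*-/- MEFs it was -1.79 ± 0.11 in A1 and -1.10 ± 0.10 in A2, untreated (adjusted p = 1.35e-10 and 1.22e-07). *Hist1h2bf* starts 185 bases from the start of *Hist1h2ad*, an H2A gene on the other strand, in a head-to-head pair. *Hist1h2ad* had log2 fold changes of -0.14 for *Lkb1*-/- against WT, -0.65 for A1 and -0.29 for A2 against *Lkb1*-/- MEFs, and of these only the value in A1 was called.

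**Figure D3:**
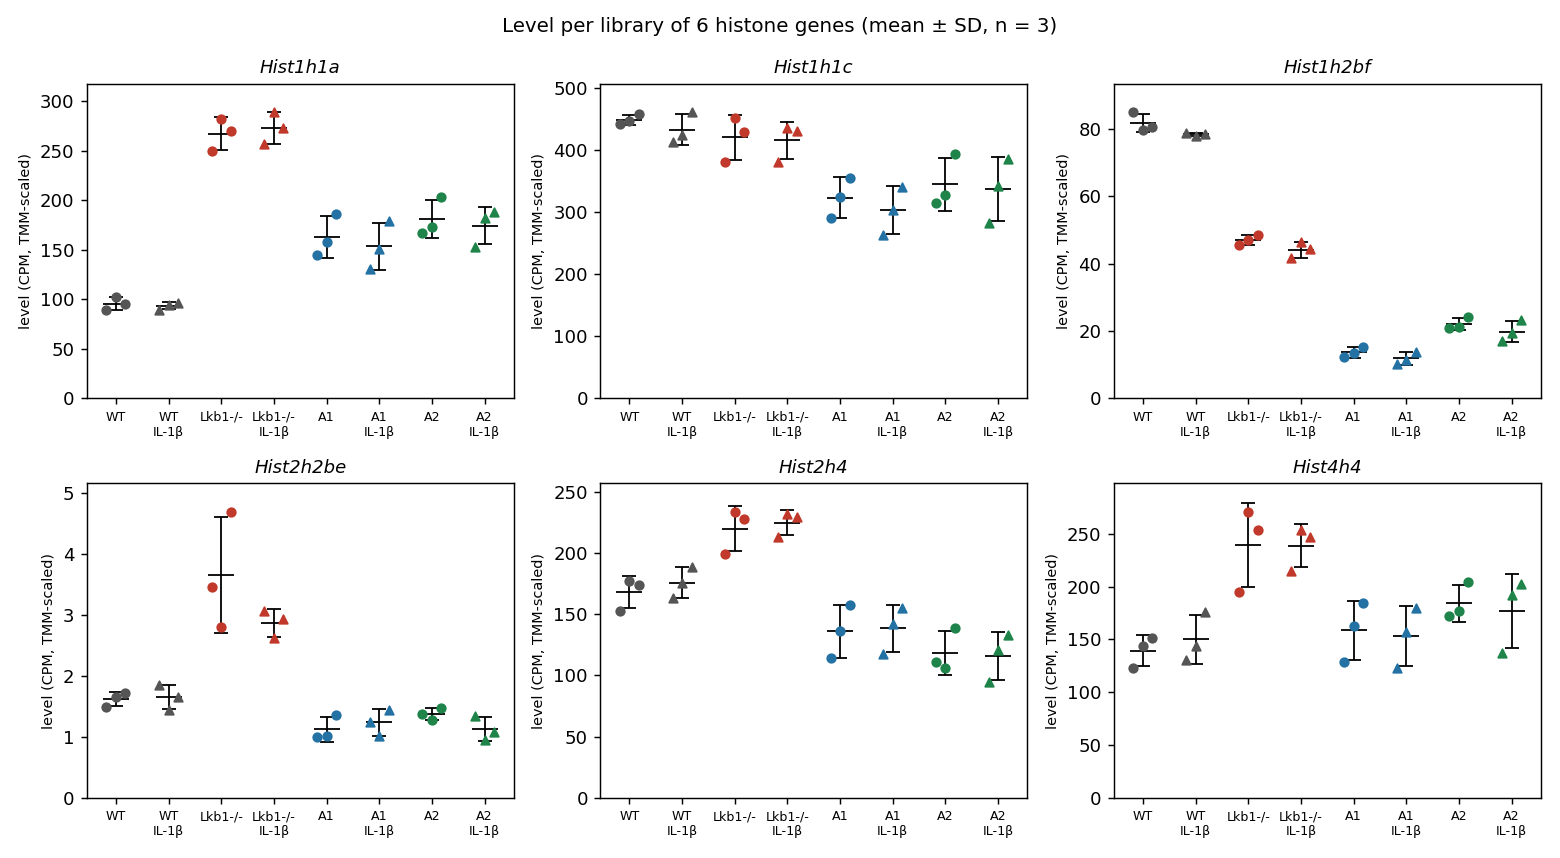
Level in CPM after TMM scaling of 6 histone genes in the 24 libraries (points), with mean ± SD of 3 libraries; circles are untreated and triangles IL-1β. *Hist1h1a* rises from 95.4 ± 6.4 CPM in untreated WT to 267 ± 17 CPM in untreated *Lkb1*-/- MEFs, *Hist1h1c* does not, and *Hist1h2bf* falls from WT to *Lkb1*-/- MEFs and again to the clones.

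The clones were then compared with *Lkb1*-/- MEFs, which serve as the reference in each of these comparisons and in the one with WT, so the comparisons share libraries. In untreated A1, 45 of 62 genes were lower and 0 higher, and in untreated A2, 32 were lower and 1 higher. Among all genes 35.3% were called in A1 (16.4% lower, 18.9% higher) and 32.3% in A2 (15.1% lower, 17.1% higher). For the count of 0 higher in A1, edgeR found 1 gene higher, *Hist1h2bq*, and 51 lower at an unadjusted p under 0.05, and DESeq2 called 1 higher and 48 lower. After IL-1β, 50 genes were lower in A1 and 32 in A2, and 0 were higher in either. Of all genes, 36.7% were called in A1 (17.3% lower, 19.4% higher) and 32.8% in A2 (15.8% lower, 17.1% higher) under this treatment. DESeq2 called 50 lower in A1, 34 lower in A2 and 0 higher in both, and at an unadjusted p under 0.05 edgeR found 51 lower in A1, 41 lower in A2 and 0 higher in both. The median log2 fold change of histone genes was -0.36 in A1 and -0.29 in A2 untreated, and -0.43 and -0.29 after IL-1β, whereas the median of all genes lay between 0.01 and 0.02. Without the untreated A2 library numbered 2, A2 had 19 lower and 1 higher, and with unstranded counts 20 lower and 1 higher of 59. Of 10 polyadenylated reference mRNAs, 5 were also lower in untreated A2 (median -0.20) and 4 in untreated A1 (median -0.07), and whether the histone genes differed from these references was not tested.

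All types took part. In untreated A1, 5 of 5 H1 genes, 10 of 15 H2A, 13 of 19 H2B, 8 of 11 H3 and 9 of 12 H4 genes were lower, and in untreated A2 the numbers were 3, 8, 8, 6 and 7. Genes called lower in each clone under both treatments included H1 genes (*Hist1h1a*, *Hist1h1d*, *Hist1h1e*), H3 genes such as *Hist1h3d* and *Hist1h3e*, and H4 genes such as *Hist1h4f* and *Hist2h4*. *Hist1h1a* fell to 145, 158 and 186 CPM in untreated A1 and to 167, 173 and 203 CPM in untreated A2. These values lay between those of WT and *Lkb1*-/- MEFs without touching either. The log2 fold change was -0.72 ± 0.11 in A1 (adjusted p = 2.72e-05) and -0.56 ± 0.11 in A2 (adjusted p = 0.000417).

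*Hist2h4*, an H4 gene, stood at 199, 234 and 228 CPM in untreated *Lkb1*-/- MEFs, at 115, 136 and 157 CPM in A1 and at 111, 106 and 139 CPM in A2. Neither clone overlapped *Lkb1*-/- MEFs. The log2 fold change was -0.69 ± 0.13 in A1 and -0.90 ± 0.13 in A2 (adjusted p = 0.000291 and 2.54e-05). *Hist1h3d*, an H3 gene, stood at 79.0, 92.8 and 91.2 CPM in *Lkb1*-/- MEFs, at 45.5, 46.5 and 56.5 CPM in A1 and at 64.8, 60.7 and 68.2 CPM in A2. The A1 libraries were the lowest and A2 lay between, with log2 fold changes of -0.82 ± 0.11 in A1 and -0.44 ± 0.11 in A2 (adjusted p = 4.84e-06 and 0.00319). *Hist2h2be* had the largest negative value among genes called in A2, with -1.41 ± 0.19 (adjusted p = 1.16e-05), and -1.70 ± 0.20 in A1 (adjusted p = 1.13e-06). *Hist2h2aa2* was called lower in untreated A1 only, with 5 to 8 counts per library (log2 fold change -1.59 ± 0.45, adjusted p = 0.00834).

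Some genes were not called in untreated A2, and some of these were not called in untreated A1 either. *Hist1h4n*, second of the H4 genes per kb, was at 228 to 271 CPM in untreated *Lkb1*-/- MEFs, 197 to 263 CPM in A1 and 205 to 267 CPM in A2. The groups overlapped, and its log2 fold changes of -0.17 and -0.15 were not called. *Hist1h2bg*, the highest H2B gene per kb, was called lower in A1 (-0.31) and not in A2 (-0.12) untreated. *Hist3h2a*, which was higher in *Lkb1*-/- than in WT MEFs, had -0.16 in A1 and 0.14 in A2, neither called. The difference between the clones was not tested.

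**Figure D4:**
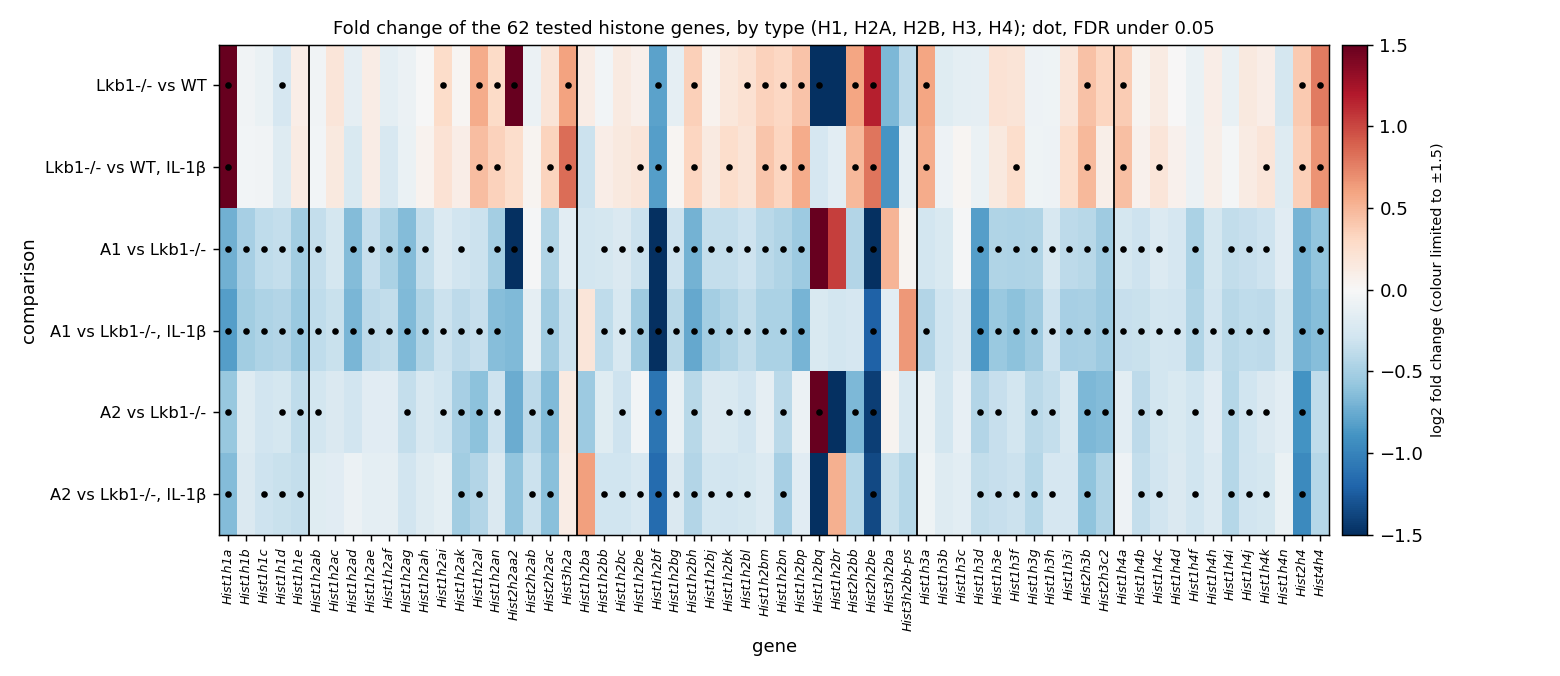
Log2 fold changes of the 62 histone genes tested (columns, by type) in 6 comparisons (rows), with colour limited to ±1.5 and a dot for FDR under 0.05. The rows of A1 and A2 against *Lkb1*-/- MEFs are blue for most genes of every type, with 45 and 32 lower untreated, while the rows of *Lkb1*-/- against WT MEFs are mixed.

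Summed by cluster, the levels were as follows. The summed level of the 10 *Hist2* genes was 294, 332 and 325 CPM in untreated WT and 376, 431 and 423 CPM in untreated *Lkb1*-/- MEFs, which did not overlap and were 29.5% apart in mean. It was 238, 286 and 310 CPM in A1 and 225, 218 and 272 CPM in A2, a decrease of 32.2% and 41.9% against *Lkb1*-/- MEFs. The sum of the 56 genes with a *Hist1* symbol changed by 3.53% between untreated WT and *Lkb1*-/- MEFs, whose libraries overlapped (6315 to 6581 and 6323 to 7038 CPM), and was 22.8% lower in A1 and 17.5% lower in A2. Of the 8 *Hist2* genes tested, 5 were higher in *Lkb1*-/- than in WT MEFs, 6 were lower in A1 and 7 in A2, against 30.1%, 16.4% and 15.1% of all genes. Whether a cluster differed from the other was not tested, and *Hist2h4* alone made 162 of the 312 CPM of the *Hist2* sum, as means over all libraries. Only 1.01% of the windows of 50 bases in *Hist2h4* recur in another histone gene. Within the clusters, 14 pairs of an H2A and an H2B gene start head to head, with 173 to 306 bases between their starts. In 10 of these pairs both genes were tested. Both members had a negative log2 fold change in 9 pairs in A1 and in 9 in A2, untreated, where 58 and 59 of all 62 histone genes were negative.

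The genes were also counted by their annotated 3′ end, and differences between these classes were not tested. Of 21 tested genes whose annotation runs 100 or more bases past the stem-loop, 17 were lower in untreated A1, with a median log2 fold change of -0.36. Of 19 genes with less, 14 were lower, with a median of -0.36, and of 22 genes without an annotated stem-loop 14 were lower, with a median of -0.32, against 16.4% of all genes. In untreated A2 the numbers were 10 of 21, 8 of 19 and 14 of 22, against 15.1% of all genes, and after IL-1β they were 13, 8 and 11, against 15.8%. For untreated *Lkb1*-/- against WT MEFs, 5 of 21, 4 of 19 and 9 of 22 were higher, against 30.1% of all genes, with medians of 0.12, -0.05 and 0.12. After IL-1β the numbers were 8, 5 and 8, against 30.2%, with medians of 0.12, 0.07 and 0.17.

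Next, IL-1β-treated libraries were compared with untreated ones. Of the 62 genes edgeR called 0 in WT, 0 in *Lkb1*-/- MEFs, 0 in A1 and 0 in A2, although other genes responded. Of all genes 2.26% were called in WT (1.53% higher, 0.731% lower), 4.74% in *Lkb1*-/- MEFs (2.65% and 2.09%), 1.99% in A1 (1.2% and 0.788%) and 5.68% in A2 (2.81% and 2.86%). At an unadjusted p under 0.05 it found 0, 1, 0 and 0 genes, and DESeq2 called 0, 1, 0 and 0. The single gene was *Hist1h2bq*, which is described below. With the replicate number as a block the count in *Lkb1*-/- MEFs was 1, also *Hist1h2bq*. Among 51 genes with a mean above 10 CPM, leaving out *Hist1h2bq*, log2 fold changes lay between -0.13 and 0.11 in WT and between -0.14 and 0.14 in *Lkb1*-/- MEFs. They lay between -0.20 and 0.05 in A1 and between -0.16 and 0.17 in A2, with a median SE of 0.10 in each. Of the 62 genes, 51 had a negative value in A1, 37 in WT, 24 in *Lkb1*-/- MEFs and 24 in A2. The summed level in A1 was lower after IL-1β at each replicate number (4768 against 5127, 5420 against 5530 and 6109 against 6228 CPM). In the other genotypes its direction differed between numbers, and neither pattern was tested. The differences of the IL-1β responses between genotypes gave 0 calls by edgeR in all 3 comparisons, with 2 genes in each at an unadjusted p under 0.05, and DESeq2 also called 0. Of all genes 0.245% were called for *Lkb1*-/- against WT MEFs (0.137% higher, 0.108% lower), 0.0285% for A1 against *Lkb1*-/- MEFs (0% higher, 0.0285% lower) and 0% for A2.

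*Hist1h2bq* and *Hist1h2br* are H2B genes of several exons, annotated over 2015 and 2212 bases, and 97.3% and 88.7% of their windows of 50 bases recur in another histone gene. The counts of *Hist1h2bq* were 1058, 720 and 2 in untreated WT and 3, 2 and 3 in untreated *Lkb1*-/- MEFs. After IL-1β they were 764, 665 and 685 in *Lkb1*-/- MEFs. In untreated A2 they were 966, 0 and 503. Over all libraries *Hist1h2bq* had at most 3 counts in 9 libraries and at least 432 in 15, with none in between. *Hist1h2br* reached 508 counts in the WT library in which *Hist1h2bq* had 2, and at most 179 elsewhere. Replicates of 1 group thus lay on both sides of this gap. The calls of *Hist1h2bq* as lower in untreated *Lkb1*-/- MEFs (log2 fold change -7.70 ± 2.53, adjusted p = 0.0131) and higher in untreated A2 (7.30 ± 2.55, adjusted p = 0.0328) are therefore uncertain. Without both genes the counts were 18 higher and 2 lower for *Lkb1*-/- against WT and 0 higher and 32 lower for A2, untreated.

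**Figure D5:**
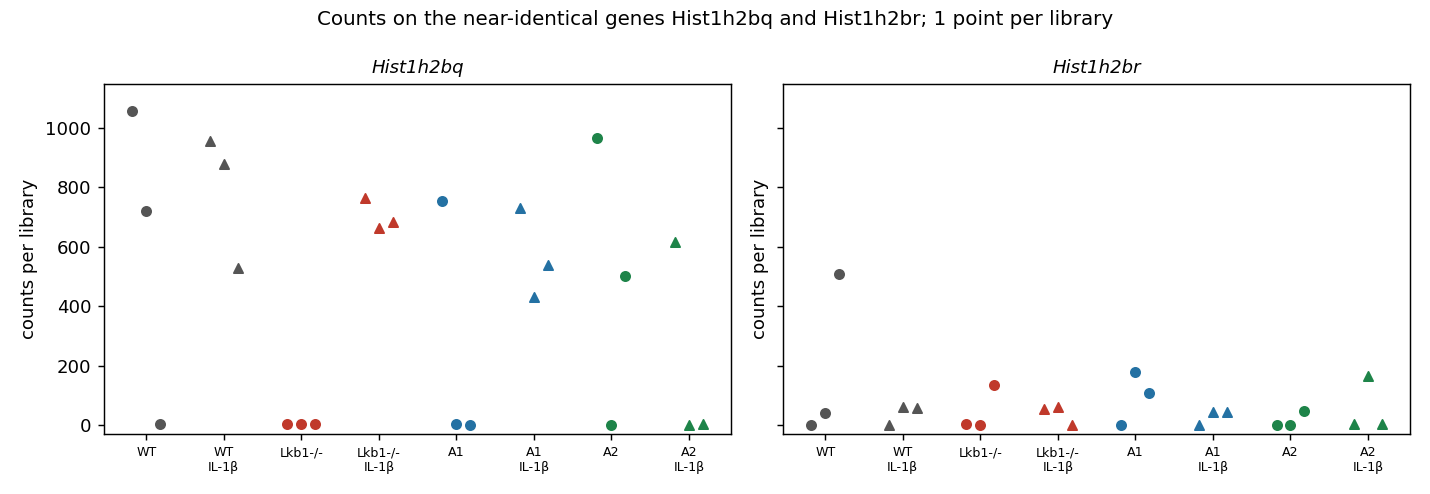
Counts per library of *Hist1h2bq* and *Hist1h2br* in the 8 groups; circles are untreated and triangles IL-1β, with 1 point per library. *Hist1h2bq* is at most 3 or between 432 and 1058 in each library, whereas *Hist1h2br* also takes values in between, up to 508.

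With only the libraries numbered 2 and 3, 20 genes were higher and 2 lower in untreated *Lkb1*-/- against WT MEFs, and 22 higher and 1 lower after IL-1β. Under the same restriction 45 genes were lower and 0 higher in untreated A1, and 38 lower and 1 higher in untreated A2. After IL-1β, 42 were lower and 0 higher in A1, and 26 lower and 1 higher in A2. This fit also called more of all genes, 7025 in untreated A1 and 6842 in untreated A2, against 6181 and 5655 with all libraries, and 10320 against 9798 for untreated *Lkb1*-/- against WT. After IL-1β it called 7271 of all genes in A1, 6747 in A2 and 10511 for *Lkb1*-/- against WT, against 6437, 5755 and 10050 with all libraries. The number of histone genes lower after IL-1β nevertheless fell, from 50 to 42 in A1 and from 32 to 26 in A2.

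Genes of related function were counted against the share of all genes called in untreated cells, which was 30.1% higher and 25.8% lower for *Lkb1*-/- against WT, 18.9% and 16.4% for A1, and 17.1% and 15.1% for A2. None of these lists was tested against all genes. Of 17 tested genes of 3′-end processing and transcriptional control, 3 were higher and 7 lower in untreated *Lkb1*-/- against WT MEFs. In the clones 7 were higher and 4 lower in A1, and 3 higher and 3 lower in A2, untreated. *Slbp*, the stem-loop-binding protein, rose by 0.50 in *Lkb1*-/- MEFs, was lower in A1 (-0.21) and higher in A2 (0.12), all called. *Npat*, the coactivator of histone gene transcription, was higher in A1 (0.38) and had 0.16 in A2, which was not called. *Lsm11*, a protein of the U7 particle, was lower in *Lkb1*-/- MEFs (-0.60) and higher in A1 (0.80) and A2 (0.42). *Upf1*, a helicase that takes part in histone mRNA decay, was lower in A1 (-0.28) and A2 (-0.59), and *Pou2f1*, the octamer-binding factor OCT1, was lower in *Lkb1*-/- MEFs (-1.24).

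Of 16 histone chaperones, 5 were higher and 7 lower in untreated *Lkb1*-/- against WT MEFs, 4 higher and 6 lower in A1, and 1 higher and 3 lower in A2. The shares of all genes were 30.1% higher and 25.8% lower, 18.9% and 16.4%, and 17.1% and 15.1%. *Asf1b*, which carries H3 and H4 in proliferating cells, was lower in *Lkb1*-/- MEFs (-0.31), A1 (-0.64) and A2 (-0.57). *Chaf1a*, a subunit of the chromatin assembly factor CAF-1, was higher in *Lkb1*-/- MEFs (0.54) and lower in A1 (-0.33).

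Replication-independent variants are mostly made from polyadenylated mRNAs, and not only in S phase. Of 11 such genes, 6 were higher and 3 lower in untreated *Lkb1*-/- against WT MEFs. In the clones 1 was higher and 2 lower in A1, and 3 higher and 3 lower in A2, to be read against the same shares of all genes. The linker variant *H1f0* rose by 1.12 in *Lkb1*-/- MEFs and was lower in A1 (-0.55) and A2 (-0.68). *H2afy2*, which encodes macroH2A2, was lower in *Lkb1*-/- MEFs (-3.09), and *H2afv*, an H2A.Z gene, was higher (1.19). *H3f3a* and *H3f3b*, both of which encode H3.3, went in opposite directions, with -0.60 and 0.43.

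Because histone mRNA is made in S phase, genes of DNA replication were set beside it. Of 24 S-phase genes, 13 were higher and 2 lower in untreated *Lkb1*-/- against WT MEFs, where 30.1% of all genes were higher and 25.8% lower. In untreated A1 3 were higher and 9 lower, with a median of -0.15 (18.9% and 16.4% of all genes). In untreated A2 8 were higher and 6 lower, with a median of 0.04 (17.1% and 15.1% of all genes). *Mcm5*, a subunit of the replicative helicase, was lower in A1 (-0.60) and A2 (-0.49), and so was *Rrm2*, a subunit of ribonucleotide reductase (-0.50 and -0.52). *Pcna*, the sliding clamp of the DNA polymerases, was lower in A1 (-0.30) and higher in A2 (0.26). The part of these changes in the histone levels was not tested.

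The lists used as references were counted against the same shares of all genes (30.1% higher and 25.8% lower, 18.9% and 16.4%, 17.1% and 15.1%). Of 15 tested RNAs without a tail, 5 were higher and 1 lower in untreated *Lkb1*-/- against WT MEFs, and 1 was lower in each clone. Of 10 polyadenylated references, 1 was higher and 2 lower in *Lkb1*-/- MEFs, 2 higher and 4 lower in A1 and 1 higher and 5 lower in A2. Their summed level was 21437 ± 205 CPM (SD, n = 3) in untreated *Lkb1*-/- MEFs, 22407 ± 997 CPM in A1 and 18462 ± 1054 CPM in A2. Of 9 fibroblast markers, 4 were higher and 4 lower in *Lkb1*-/- MEFs, 3 higher and 1 lower in A1 and 1 higher and 1 lower in A2. Of 3 tested markers of other cell types, 2 were higher in *Lkb1*-/- MEFs and 1 in each clone, and none was lower.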

How the data were processed

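RNA-seq of 24 libraries was analysed. Per the labels and the study's methods, the authors trimmed reads with Trim Galore 0.6.0, aligned them to GRCm38 with STAR 2.7.8a and deposited its gene count tables. The deposited counts are whole reads per gene, not normalized, and come in an unstranded column and a column for each strand. The column for the second strand was used, since it held 95.5% to 96% of the stranded counts. The labels name an mRNA kit and the study's methods name ribosomal depletion. Lines naming no gene held 26.7% to 34.4% of the reads and were left out. STAR counts reads that map once, so genes with near-identical copies lose reads (7.69% to 9.06% mapped more than once).

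Groups came from the labels. Symbols, exon lengths and sequences came from GENCODE annotation of GRCm38 and matched 55230 of 55471 genes. Promoters came from RefSeq (GRCm38.p6) and matched 62 of 70 histone genes. Stem-loops were searched from the stop codon to the annotated end, and motifs on both strands of the 250 bases before the start.

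Genes were kept by filterByExpr (minimum count 10, minimum total 15), scaled with TMM and fitted over all 24 libraries with edgeR 4.0.16 in R 4.3.3 (quasi-likelihood test, Benjamini-Hochberg adjustment over 17522 genes, FDR under 0.05). Adjusted p-values and SEs come from this fit unless another setting is named beside them. Figures and summaries used Python 3.11.15. Alternatives were unstranded counts, RLE and upper quartile scaling, no filter and a stricter filter, the newer quasi-likelihood form, a replicate block, only the groups compared, DESeq2 1.42.0 and leaving out each library. Leaving out *Hist1h2bq* and *Hist1h2br*, and using only libraries 2 and 3, were chosen after seeing the data.

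Named genes were the 2 highest of each type per kb, up to 3 in each direction with the largest change among those called without overlap in a genotype comparison, and any called for IL-1β. *Hist1h1e*, *Hist1h1t*, *Hist1h2ad*, *Hist1h2aj*, *Hist1h2al*, *Hist1h2bc*, *Hist1h2bq*, *Hist1h2br*, *Hist1h4b*, *Hist2h2ac*, *Hist2h3b*, *Hist3h2bb-ps* and *Hist4h4*, and the examples from the other lists, were named after their values were seen. The histone genes and the lists of processing factors, chaperones, variants, S-phase genes, reference RNAs and cell type markers were chosen with earlier results of these data known.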

Additional observations from a re-analysis of the deposited data

How the results depend on the processing

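Of the 226 counts of called histone genes recomputed under the alternatives, 210 stayed within 1.5 times the reported count and 16 did not. Many of the 226 belong to IL-1β comparisons with a reported count of 0. A recomputed 0 there counts as the same and says nothing of the genotype counts. For *Lkb1*-/- against WT MEFs after IL-1β, 22 calls became 14 with unstranded counts and 35 with upper quartile scaling, which shifted the median of all genes from 0.03 to 0.14. For untreated A2, 33 calls became 21 with unstranded counts. With no filter on low counts, IL-1β gave 2 calls in WT, 1 in *Lkb1*-/- MEFs, 2 in A1 and 2 in A2, and the differences of the responses gave 2, 1 and 2. In *Lkb1*-/- MEFs IL-1β gave 1 call, *Hist1h2bq*, with the replicate block, with only the groups compared, with DESeq2 and with libraries 2 and 3 only. The cause was not tested.

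Leaving out single libraries gave 17 to 19 and 17 to 20 calls for *Lkb1*-/- against WT (untreated, then IL-1β), 33 to 48 and 42 to 51 for A1, and 20 to 37 and 24 to 37 for A2, with 20 without the second untreated A2 library. For IL-1β it gave 0 to 1 in A1 and 0 in the other genotypes. The mean summed level moved by more than its SD in 6 of 56 cases. Upper quartile scaling gave 6642 CPM in untreated and 6482 CPM in IL-1β-treated WT. Unstranded counts gave 6755 and 6519 CPM in WT and 6809 and 6847 CPM in *Lkb1*-/- MEFs. Of 332 fold changes of named genes, 327 kept direction and call, 5 lost the call (*Hist1h1d* and *Hist3h2a*) and 0 reversed.

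The labels number replicates alike in every group without saying what a number marks. Deviations of same-numbered libraries from their group means correlated at 0.0355 to 0.589 over all genes (84 correlations, 15 under 0.1), and 23 of 24 libraries correlated best with their own number. Over the 9369 genes with a mean log2 CPM above 3 the correlations were 0.238 to 0.819, 0 of 84 were under 0.1, and 24 of 24 libraries correlated best with their own number, a hint from the data that numbers are shared. With the replicate number as a block, 29 and 30 histone genes were called for *Lkb1*-/- against WT (untreated, then IL-1β), 54 and 53 for A1 and 45 and 43 for A2. For *Lkb1*-/- against WT these were 23 higher and 6 lower untreated, and 26 higher and 4 lower after IL-1β. Without the block 3 and 1 were lower. In each clone 1 of the called genes was higher untreated and 0 after IL-1β. The block raised the calls among all genes too, untreated from 9798 to 11275, from 6181 to 8424 and from 5655 to 8042. After IL-1β they rose from 10050 to 11550, from 6437 to 8603 and from 5755 to 8163. Low counts limit the 8 untested genes and *Hist2h2aa2*, several of which share most of their sequence with another histone gene, and the part of depth and of shared sequence was not tested.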

Other observations

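Among the histone genes that were not tested, *Hist1h1t* and the other low genes had at most 12 counts in any library. *Hist1h2al*, a processed pseudogene, lies at chr13:51202727-51203065, apart from the other *Hist1* genes, and was called higher in *Lkb1*-/- than in WT MEFs under both treatments.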
